A study of Mus musculus with 6 samples.

Results

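The regions described here are the ATF4 ChIP-seq peaks that lie between genes and within 50 kb of an annotated transcription start site (TSS). They were taken from 4 annotated peak lists of mouse embryonic fibroblasts (MEFs) as the rows marked intergenic, with a distance to the TSS of 50000 bp or less, whose detailed annotation names neither a repeat element nor a CpG island. This rule kept 2719 of 17462 listed peaks. The WT +Leu list gave 758 of its 4850 peaks, WT -Leu gave 1016 of 6374, and the GCN2 KO lists gave 558 of 3566 (+Leu) and 387 of 2672 (-Leu). Wherever values are given below for all lists, they follow this order. The rule did not use the score of a peak, its sequence or its presence in another list.

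WT +Leu and WT -Leu stand for primary Wild-type MEFs kept for 24 h in complete DMEM or in DMEM that lacked leucine, and GCN2 KO +Leu and GCN2 KO -Leu stand for GCN2-/- MEFs in the same media. All cells were of strain 129S6/SvEvTac, the age of the embryos was not given in the sources used here, and chromatin was precipitated with an antibody to ATF4. A single pooled library stood for each condition (1 library from 2 experiments, each of 5 replicates or more), and differences between conditions therefore had no replicate check and were not tested. A peak list cannot show whether the cells were fibroblasts, since it holds no marker expression.

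ATF4 is a basic leucine zipper transcription factor. Its mRNA is translated when the kinase GCN2 senses uncharged tRNA and phosphorylates eIF2alpha, as happens when leucine is withheld. With a C/EBP partner, ATF4 binds a composite element in which one side of a C/EBP site is joined to one side of an ATF site, written here as TGATGCAA. Binding far from a promoter can mark an enhancer, but the nearest gene by distance need not be the gene that is controlled. Genes are therefore named below as the nearest gene that the authors' annotation lists.

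Some strong sites with TGATGCAA, and sites with it at genes of amino acid transport, tRNA charging and stress signaling, are shown first by their sequence. They were chosen for this element, which recurs in the results, and other strong sites, with and without it, are left out. The second Klhdc4 element lay 119.5 bp from the WT -Leu peak centre. Each line gives 30 bases of the mm10 genome (GRCm38), 5′ to 3′ on the strand of the element, with the element in capitals. This genome is of the strain C57BL/6J, not that of the cells.

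Klhdc4, at chr8:121851224-121851231 on the minus strand: ccccatcagcaTGATGCAAtatttgcttct
Klhdc4, at chr8:121851099-121851106 on the plus strand: tacgacagggcTGATGCAAcaccctaagga
Gm5627, at chr9:102736278-102736285 on the minus strand: atggctgctgcTGATGCAAtctgttgagag
Tbc1d31, at chr15:57906853-57906860 on the minus strand: tggctgccagcTGATGCAAaaccaggcaat
Serpinh1, at chr7:99360306-99360313 on the plus strand: acaggccaagcTGATGCAAcgtgggcctat
Capg, at chr6:72508794-72508801 on the plus strand: atccctgtagcTGATGCAAggcctggggtg
Slc7a1, at chr5:148419263-148419270 on the plus strand: gctgagttgcaTGATGCAAtcgctgttgtg
Fgf21, at chr7:45616510-45616517 on the plus strand: gctgtcctcccTGATGCAAtcctagtgctt
Tars, at chr15:11370869-11370876 on the minus strand: agctggggagaTGATGCAAtgactgctcct
Slc38a2, at chr15:96743409-96743416 on the minus strand: caaatgctggcTGATGCAAtcctgagttgc

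The next set is shown because these sites reached high scores in WT cells with T or A, in place of C, at the sixth position of the element.

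Gap43, at chr16:42380812-42380819 on the minus strand: gccagagtgagTGATGTAAttgctctgaaa
Trp53inp1, at chr4:11147883-11147890 on the plus strand: tggaaatcccaTGATGTAAccctctgaaac
Ddit4, at chr10:59952878-59952885 on the minus strand: cctcgcctgaaTGATGAAAccccatatggc

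Each listed peak is a window of 150 bp to either side of the summit and carries a score from the authors' peak caller, a whole number from 13 up. Its scale is not given in the sources used here, and it is not normalised between libraries. The lists hold no read depth, so the precision of a score and the part of depth in any difference between lists are unknown. The -Leu lists were called against input DNA of leucine-fed cells, as their headers show, and the 2 input libraries were not analysed here. On the assembled chromosomes the listed GC content of every peak equalled that of the reference. Members on unplaced contigs numbered 8 in WT +Leu and 5 in each other list, and their sequence was not examined.

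As a check of the label, the centre of each member was set against RefSeq genes of the same assembly. In WT -Leu, 271 of 1011 members on assembled chromosomes (26.8%, 95% Wilson interval 24.2 to 29.6) lay inside a RefSeq gene of some kind, and 124 (12.3%) lay inside a protein-coding one. Inside a protein-coding gene lay 9.47% of the members with leucine in WT, 9.22% with it in GCN2 KO and 13.9% without it in GCN2 KO. The word intergenic thus holds for the annotation in the lists, and for part of the members it does not hold in RefSeq. The 50 kb limit passed between close neighbours. In WT -Leu the last member inside it was a Dhrs4 peak at -49974 bp with a score of 15, and the first peak outside was at BB123696, at 50097 bp with a score of 30. With leucine the corresponding peaks were N4bp1 (49879 bp, score 30) and Mapk8 (-50088 bp, score 25) in WT and Kif26a (49903 bp, score 31) and Habp2 (-50345 bp, score 25) in GCN2 KO. In GCN2 KO without leucine they were Spg21 (49612 bp, score 29) and Cyth4 (50281 bp, score 25).

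Leucine starvation was accompanied by more intergenic peaks in WT cells and by fewer in GCN2 KO cells. The number of members went from 758 to 1016 in WT, a ratio of 1.34 (95% Wilson interval 1.22 to 1.47, counting error only). In GCN2 KO it went from 558 to 387, a ratio of 0.694 (0.609 to 0.789). Members made up a similar share of every list, at 15.6% (14.6 to 16.7), 15.9% (15.1 to 16.9), 15.6% (14.5 to 16.9) and 14.5% (13.2 to 15.9) in the 4 lists. The share moved little while the numbers moved, so the members followed the length of their list. Intergenic peaks beyond 50 kb gave ratios of 1.21 (1.08 to 1.35) in WT and 0.840 (0.730 to 0.966) in GCN2 KO, with intervals that overlap those of the members. Promoter peaks rose by a larger factor in WT, 2.13 (1.71 to 2.64), an interval that does not overlap that of the members, and gave 0.711 in GCN2 KO.

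The gain in WT was largest among strong peaks. The median score of the members was 30, 30, 29 and 30 in the 4 lists, and the highest was 1409, 2319, 328 and 132. A score of 100 or more was held by 9 members of WT +Leu (1.19%, 0.626 to 2.24), where 1.86% of all listed peaks had one. In WT -Leu it was held by 114 members (11.2%, 9.42 to 13.3), beside 9.82% of all peaks. The WT numbers thus stood 12.7 times apart (6.51 to 24.7). Among GCN2 KO peaks, 4 members with leucine reached 100 (0.717%, beside 0.897% of all peaks) and 3 without it did (0.775%, beside 0.487%), a ratio of 0.75 (0.188 to 2.99) that is open in both directions. In each list the share of members was near that of all peaks. Promoter peaks reached 100 more often, in 16.8%, 28.5%, 14.5% and 3.39% of cases in the 4 lists in the same order.

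**Figure D1:**
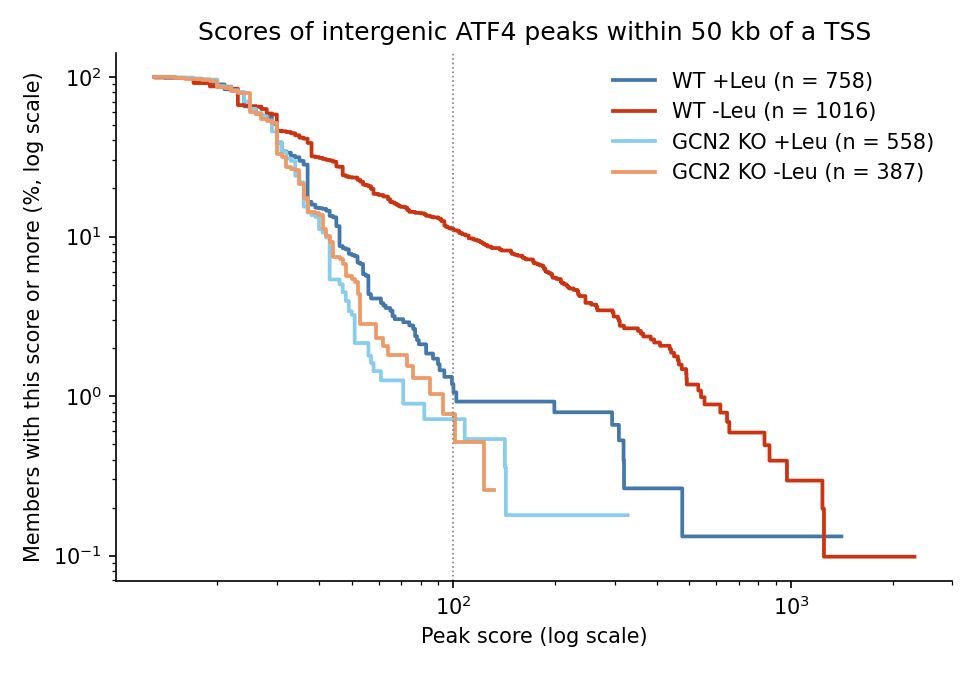
Share of intergenic members (y axis, percent, log scale) that reach a given peak score or more (x axis, log scale), 1 line per list. The lines run together up to a score of about 30, and above it the WT -Leu line leaves the others, with 11.2% of members at 100 or more (dotted line) against 1.19% in WT +Leu and 0.717% and 0.775% in the GCN2 KO lists.

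The members lay mostly upstream of the gene they were assigned to, at distances that the rule itself bounds. Their median distance from the TSS was 17351, 15487, 17744 and 19617 bp in the 4 lists. Over all peaks it was larger, at 26279, 23864, 25335.5 and 26710 bp, so distance is not a trait particular to the members. Over 5 kb from the TSS, a distance at which the study assigned no target gene, lay 634 (83.6%), 845 (83.2%), 480 (86.0%) and 347 (89.7%) of the members. The same share over all peaks is not given here. Of the 114 WT -Leu members with a score of 100 or more, 97 lay over 5 kb away. Upstream of the TSS lay 71.6%, 73.2%, 69.4% and 69.8%, and a member can lie downstream only past the end of its gene. The median GC content was 52.2%, 51.8%, 52.8% and 52.8%. The nearest genes numbered 711, 920, 528 and 363, and the nearest gene was protein-coding for 82.1%, 83.2%, 80.3% and 82.4% of members. A promoter peak of the same list at the nearest gene was found for 6, 15, 2 and 2 members (0.792%, 1.48%, 0.358% and 0.517%). Among the 114 strong WT -Leu members this was so for 2. The lists themselves held only 119, 253, 83 and 59 promoter peaks, and the share over all peaks is not given here.

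The ATF4 element was more frequent in members from WT cells than in their surroundings. TGATGCAA was searched on both strands wholly within 50 bp of the peak centre, and windows of the same length 1 kb to either side served as local background. In WT +Leu it was found in 28 of 750 members (3.73%, 2.60 to 5.34), against 0.333% of the windows beside them and 2.71% of all peaks in the list. In WT -Leu it was found in 80 of 1011 (7.91%, 6.40 to 9.74), against 0.0989% beside them and 6.95% of all peaks. In GCN2 KO +Leu 5 of 553 members carried it (0.904%, 0.387 to 2.10, with 0.0904% beside them and 1.07% of all peaks). In GCN2 KO -Leu 5 of 382 did (1.31%, 0.560 to 3.03, with 0.262% beside them and 1.09% of all peaks). Members with the element rose from 28 to 80 in WT, a ratio of 2.86 (1.86 to 4.38), and numbered 5 in both GCN2 KO lists. Intergenic peaks beyond 50 kb held it in 1.52%, 7.25%, 0.465% and 1.11% of cases and promoter peaks in 12.6% (WT +Leu), 15.4% (WT -Leu), 10 of 83 (GCN2 KO +Leu) and 6.78% (GCN2 KO -Leu).

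**Figure D2:**
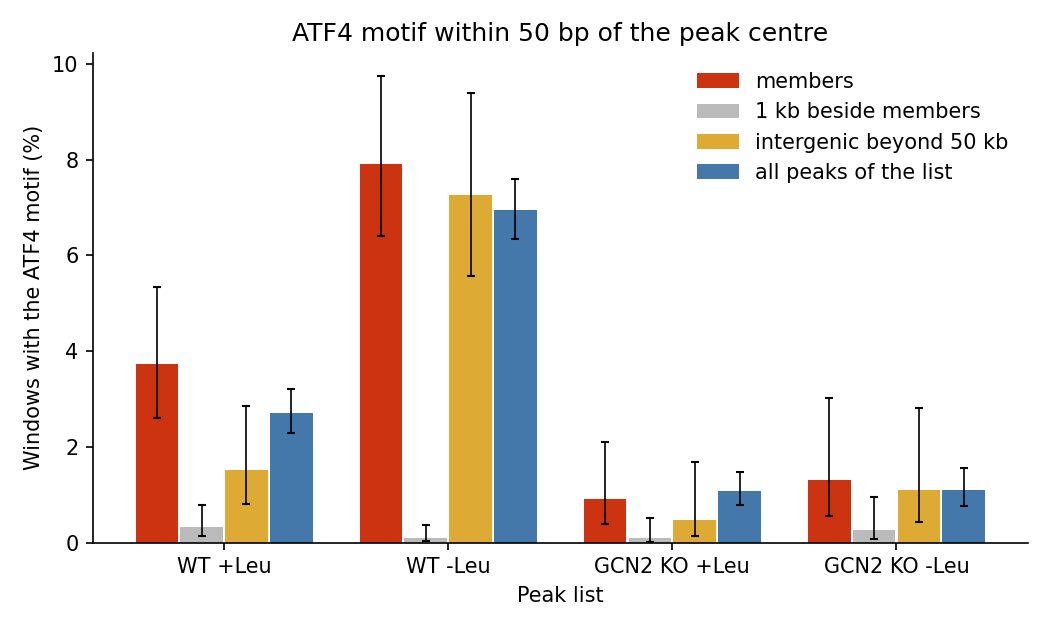
Share of 101 bp windows that hold TGATGCAA on either strand (y axis, percent) in each list (x axis), for the intergenic members, the windows 1 kb to either side of them, intergenic peaks beyond 50 kb and all peaks of the list. Error bars are 95% Wilson intervals. Members reach 7.91% in WT -Leu and 3.73% in WT +Leu, and no bar for the windows beside the members exceeds 0.333%.

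The share was similar at all distances from the gene in WT -Leu cells. Within 5 kb of the TSS 14 of 171 members held TGATGCAA (8.19%), and over 5 kb away 66 of 840 did (7.86%). From 5 to 10 kb, 10 to 20 kb and 20 to 50 kb the shares were 7.78%, 6.43% and 8.91%. In WT +Leu the shares were 5.65% (7 of 124) within 5 kb and 3.35% (21 of 626) beyond it.

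The element went with the score. Among WT -Leu members with scores of 13 to 24 it was found in 1 of 343 (0.292%), from 25 to 49 in 14 of 432 (3.24%), from 50 to 99 in 24 of 123 (19.5%), and at 100 or more in 41 of 113 (36.3%, 28.0 to 45.5). WT +Leu members showed the same order with 0 of 262 (Wilson upper bound 1.45%), 10 of 433 (2.31%), 12 of 47 (25.5%) and 6 of 8. Most members therefore belonged to score classes in which the element was rare. The shares by score class over all peaks are not given here. In GCN2 KO +Leu 0 of 166 and 0 of 371 members in the lower classes held it (upper bounds 2.26% and 1.02%), and 2 of 13 and 3 of 3 in the upper classes did. In GCN2 KO -Leu the counts were 1 of 82, 1 of 282, 2 of 17 and 1 of 1.

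Within the peaks the element sat near the summit. The whole window of 150 bp to either side held 116 TGATGCAA elements in 109 WT -Leu members, 61 of them within 25 bp of the centre, at a median distance of 24 bp. For members with a score of 100 or more the median distance was 19.5 bp (55 elements). In WT +Leu 42 elements in 37 members lay at a median of 33 bp. More than 1 element stood in 4 WT +Leu and 6 WT -Leu members, among them the Klhdc4 site shown above.

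**Figure D3:**
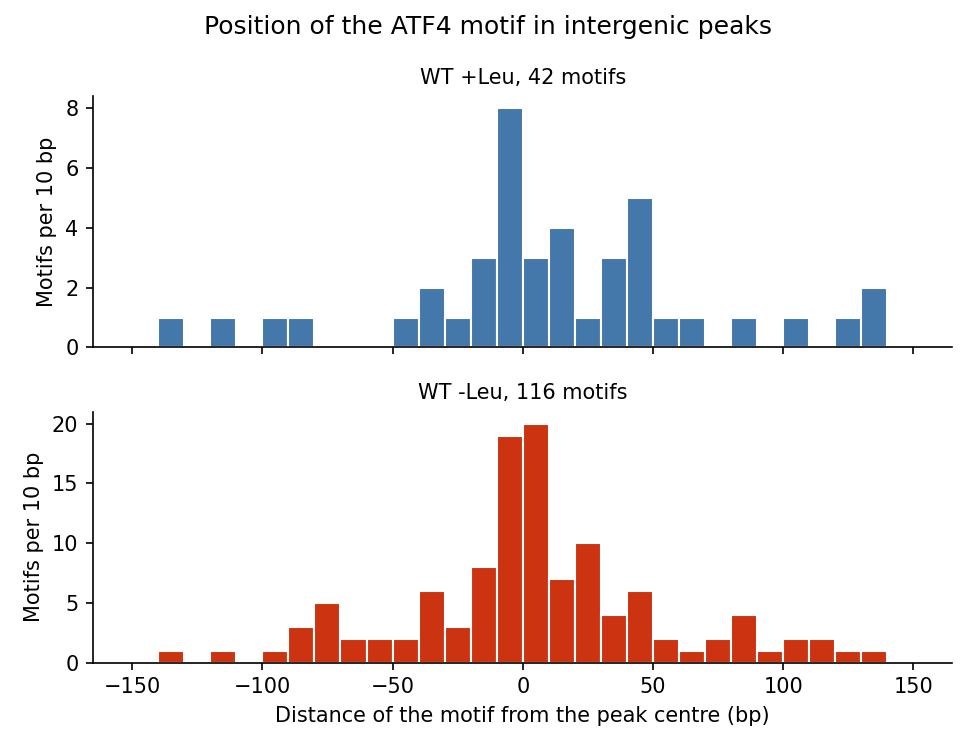
Number of TGATGCAA elements per 10 bp (y axis) by their distance from the peak centre in bp (x axis) in intergenic members of WT +Leu (upper panel, 42 elements) and WT -Leu (lower panel, 116 elements). The elements gather around the centre, with 61 of 116 within 25 bp of it in WT -Leu.

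Not every strong member carried C at the sixth position. With any base there (TGATGNAA), 5.60%, 13.1%, 1.63% and 3.14% of members had a match in the 4 lists, against 1.47%, 1.34%, 0.904% and 1.18% beside them and 4.26%, 11.0%, 2.23% and 2.26% of all peaks. At 100 or more in WT -Leu the share was 56.6% (64 of 113), and the share over all peaks of that class is not given here. Of the 138 matches near the centre in WT -Leu, 83 (60.1%) were TGATGCAA, 29 (21.0%) TGATGTAA, 23 (16.7%) TGATGAAA and 3 (2.17%) TGATGGAA. In the windows beside the members, 2 of 27 matches were TGATGCAA (7.41%) and 9 were TGATGGAA (33.3%). The base after TGATGCAA was T in 39 of 83 elements (47.0%), C in 17, G in 19 and A in 8, whereas over 87103 such elements of the genome T followed in 25.5% and A in 41.7%. The genome count covers the whole assembled chromosomes, repeats included, and was not matched to the kind of sequence in the members. The first Klhdc4 element and those at Gm5627, Slc7a1, Fgf21, Tars and Slc38a2 above are followed by T.

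Other elements were searched in the same windows. TGANTCA, which binds AP-1 factors of the FOS and JUN families, was found in 54 WT -Leu members (5.34%, 4.12 to 6.90), against 3.17% (2.49 to 4.02) of the windows beside them and 4.42% of all peaks. Of the WT -Leu members with a score of 100 or more, 17 of 113 held it (15.0%), and 12 of these had no TGATGNAA. The share over all peaks with such a score is not given here. Members of the lists other than WT -Leu held it in 2.40%, 2.17% and 2.62% of cases, with 3.07%, 2.98% and 2.75% beside them and 2.85%, 2.31% and 2.63% of all peaks. The CRE palindrome TGACGTCA occurred in 1 member of each WT list and in 0 members of the GCN2 KO lists, where 0.0620%, 0.141%, 0.0564% and 0.0752% of all peaks held it. The C/EBP palindrome TTGCGCAA occurred in 1 GCN2 KO +Leu member (0.0282% of all peaks of that list) and in 0 members of the other lists. The E-box CACGTG was found in 1.20%, 2.08%, 1.81% and 1.31% of members, in 1.67%, 1.68%, 2.44% and 2.09% of the windows beside them and in 1.96%, 1.76%, 71 of 3549 and 2.07% of all peaks, with overlapping intervals for members and neighbouring windows in each list.

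Most intergenic sites were listed in a single condition. Joining peaks whose centres lay 300 bp or less apart gave 2611 sites with at least 1 member, and 2520 of them (96.5%) were in 1 list, 76 in 2, 9 in 3 and 6 in all 4. The same count for sites of all peaks is not given here. Of the WT +Leu members 57 (7.52%, 5.85 to 9.62) had a WT -Leu peak at the site, beside 6.35% of all WT +Leu peaks. From the other side, 57 WT -Leu members (5.61%) had a WT +Leu peak, beside 4.85%. Between genotypes the shares were lower, at 16 of 758 WT +Leu members with a GCN2 KO +Leu peak (2.11%, beside 1.92%) and 14 of 1016 WT -Leu members with a GCN2 KO -Leu peak (1.38%, beside 1.27%). Within GCN2 KO 16 of 558 +Leu members had a -Leu peak (2.87%, beside 2.75%). Each share was near that of all peaks.

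Among the members, sites with the element recurred far more often than sites without it. Of the 28 WT +Leu members with TGATGCAA, 26 had a WT -Leu peak at the site (92.9%, 77.4 to 98.0), against 27 of the 722 without it (3.74%, 2.58 to 5.39). From the other side, 25 of 80 WT -Leu members with it had a WT +Leu peak (31.25%), against 28 of 931 without it (3.01%). Stronger peaks held the element more often, and scores were not matched in these counts. The same split of all peaks by the element is not given here, for these counts or for those by site below. They therefore cannot be read as particular to the members. All 5 GCN2 KO +Leu members with the element had a peak in both WT lists. Counted by site, TGATGCAA was present in 2.31% of sites in 1 list, 26.7% of those in 2 lists and 50% of those in 3, and in each of the 3 assembled sites found in all 4 lists. Of the 85 sites with the element, 58 were in 1 list. A WT -Leu peak was present at 82 of the 85, a WT +Leu peak at 29 and a GCN2 KO peak at 8. The 3 without a WT -Leu peak, named after their values were seen, had low scores (Mtcl1 and Azi2 with 30 in WT +Leu, B3gnt7 with 20 in GCN2 KO -Leu). Sites found in WT -Leu alone held it in 55 of 944 cases (5.83%), those in WT +Leu alone in 2 of 688 (0.291%), and those in GCN2 KO lists alone in 1 of 890 (0.112%, 0.0198 to 0.634).

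Among the members, the site with the highest score in every list was assigned to Klhdc4, at -21653 bp, in the window chr8:121851072-121851372. Over all peaks of each list the site ranked 2, 3, 3 and 9. It scored 1409 and 2319 in WT with and without leucine, and 328 and 132 in GCN2 KO, so both WT scores lay above both GCN2 KO scores, and leucine starvation went with a higher score in WT and a lower one in GCN2 KO. By RefSeq the window lies between the predicted gene Gm42048, 7320 bp away, and Slc7a5, 29924 bp away, which encodes LAT1, a subunit of the main transporter of leucine and other large neutral amino acids. Further sites assigned to Klhdc4 were named after their values were seen. One with TGATGCAA, at -19049 bp, was listed in WT -Leu alone with a score of 393. The others were weak, at 23 in WT -Leu and at 27 and 23 in GCN2 KO +Leu.

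Gm5627 and Tbc1d31 were the other assembled sites found in all 4 lists. The Gm5627 site, at -3367 bp on chromosome 9, scored 319 and 1238 in WT with and without leucine, and 143 and 39 in GCN2 KO. It lies 2863 bp from Amotl2, an angiomotin family gene that acts in Hippo signaling. The Tbc1d31 site, at -5327 bp on chromosome 15, scored 295, 972, 56 and 85 in the same order. On its other side, 14454 bp away, is Derl1, which encodes a membrane protein of endoplasmic reticulum-associated degradation. These sites shared the order of the WT scores, and their GCN2 KO scores moved in opposite directions.

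Serpinh1 and Capg were listed in 3 conditions. Serpinh1, which encodes the collagen chaperone HSP47, had a site at -7099 bp that scored 476 in WT +Leu, 834 in WT -Leu and 142 in GCN2 KO +Leu. The Capg site, at -35594 bp, scored 309, 474 and 57 in these lists, and lies 4844 bp from Sh2d6. Neither had a peak in GCN2 KO -Leu.

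**Figure D4:**
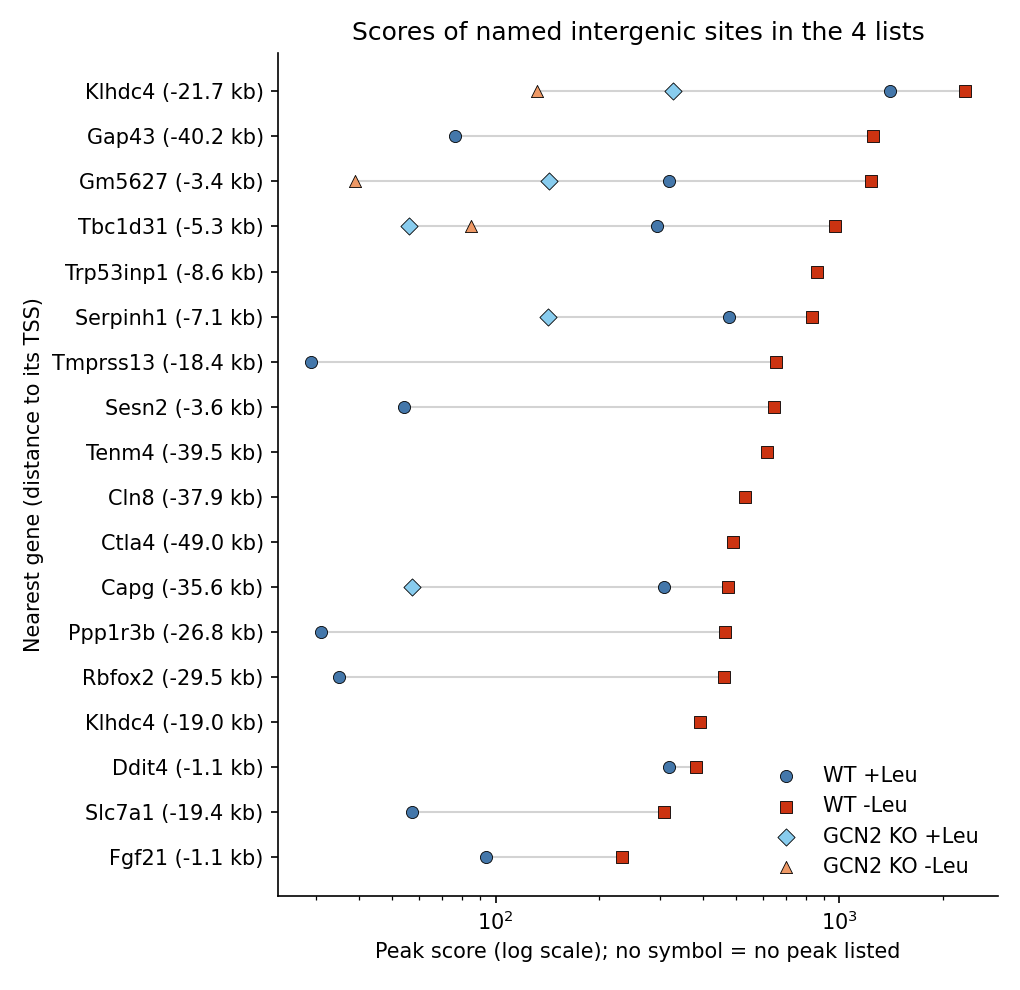
Peak scores (x axis, log scale) of named intergenic sites (y axis, nearest gene with its distance from the TSS in kb), with 1 symbol per list that holds a peak. The WT -Leu symbol is rightmost at every site drawn, from 2319 at Klhdc4 to 233 at Fgf21, and 5 sites carry no symbol other than WT -Leu. Only named sites with a high score in any list are drawn. Several were chosen for a strong WT -Leu score or a large ratio of WT -Leu to WT +Leu, so this order follows in part from the choice.

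Some sites were strong in WT cells without leucine and weak or unlisted with it. Gap43, which encodes a growth cone protein, had a site at -40181 bp that scored 76 in WT +Leu and 1251 in WT -Leu. Trp53inp1, a stress-induced p53 target that acts in cell death and autophagy, had a site at -8571 bp listed in WT -Leu alone, with a score of 863. Neither held TGATGCAA near the centre, and both held TGATGTAA. Sesn2, a sestrin that lowers mTORC1 activity and senses leucine, had a site at -3587 bp with 54 in WT +Leu and 646 in WT -Leu, with a TGATGCAA 70.5 bp from the centre. In all, 79 of the 114 strong WT -Leu members were in no other list, with a median score of 187 and 20 with TGATGCAA, and 10 of the 114 were in a GCN2 KO list. The same shares over all 626 WT -Leu peaks with a score of 100 or more are not given here. These counts therefore cannot be read as particular to the members.

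Further sites of this kind were chosen after their values were seen. Tmprss13, a membrane serine protease gene, scored 29 in WT +Leu and 656 in WT -Leu and held TGATGTAA. Ppp1r3b, a glycogen-targeting subunit of protein phosphatase 1, scored 31 and 465 and held 3 TGATGCAA elements, and Rbfox2, a splicing regulator, scored 35 and 462. In WT -Leu alone were sites at Tenm4 (617), Cln8 (531) and Ctla4 (491), of which the Ctla4 site held TGATGCAA and the Cln8 site TGATGAAA. By RefSeq the Cln8 site lies inside Dlgap2, and the Tenm4 site lies 145 bp from the start of Tenm4 itself, so neither is a distal intergenic site in that annotation.

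Over the 57 WT +Leu members with a WT -Leu peak at the site, the -Leu score was higher at 46, lower at 10 and equal at 1, with a median ratio of 2.31 (quartiles 1.27 and 5.09). Over all peaks it was higher at 252 of 308 such sites, with a median ratio of 2.36. Among the 57, it was 2 or more times the +Leu score at 30, beside 58.4% of all WT sites in both lists, and 0.5 times or less at 1, beside 3.25%. At all 27 sites with TGATGCAA the -Leu score was higher (median ratio 2.78). At the 26 assembled sites without it, 17 were higher (median ratio 1.98). The lowest ratio, at Kcnk12, named after its value was seen, was 0.411 (56 and 23), and the highest, at Tmprss13, was 22.6. By percentile rank within each list 28 of the 57 sites were higher without leucine and 29 lower, so the direction rests on the raw scores, which are not normalised. Of all 308 sites, 152 were higher by rank and 156 lower.

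**Figure D5:**
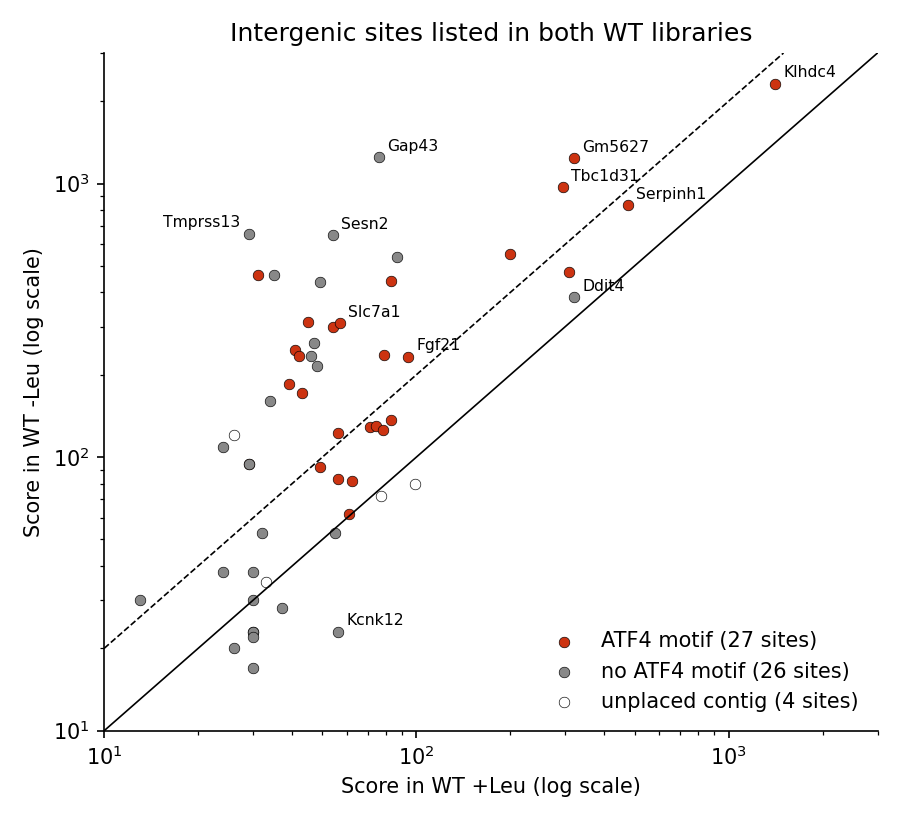
Score in WT -Leu (y axis, log scale) against score in WT +Leu (x axis, log scale) for the 57 intergenic WT +Leu members with a WT -Leu peak at the site, by presence of TGATGCAA. The solid line marks equal scores and the dashed line a ratio of 2. All 27 sites with the element lie above the solid line. The 10 sites below it are without the element or lie on the unplaced contig (open symbols), whose sequence was not examined.

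In GCN2 KO cells 16 +Leu members had a -Leu peak at the site, with a median ratio of 1.25 and 10 of 16 higher. Over all peaks the 98 such sites had a median ratio of 1, with 45 higher and 48 lower. Among the 16 members the ratio was 2 or more at 3 (beside 5.10% of all such sites) and 0.5 or less at 2 (beside 17.3%). The latter were Klhdc4 and Gm5627. Of the members that were higher, 4 lay on 1 unplaced contig, at the pseudogene Pisd-ps3, with scores of 61 and 101, 56 and 93, 48 and 123, and 42 and 64. Between genotypes with leucine, 13 of 16 shared sites scored lower in GCN2 KO than in WT (median ratio 0.554, 6 at 0.5 or less, beside 35.5%). Without leucine 10 of 14 did (median ratio 0.567, 6 at 0.5 or less, beside 51.9%). Over all peaks, 62 of 93 such sites with leucine (median ratio 0.667) and 63 of 81 without it (median ratio 0.469) scored lower. By percentile rank within each list, GCN2 KO was lower at 12 of the 16 sites with leucine, beside 53 of 93 over all peaks. Without leucine it was lower at 7 of the 14 and higher at 7, so that direction rests on the raw scores, which are not normalised. Over all peaks without leucine it was lower by rank at 47 of 81.

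The Pisd-ps3 sites stood apart from the rest. This pseudogene was nearest to more members than any other gene in the lists, with 7 in WT +Leu and 5 in each of the others, all on the contig JH584304, and it supplied the other 3 sites found in all 4 lists. Their scores were 26, 120, 42 and 64 at 25347 bp in the order of the lists, 77, 72, 61 and 101 at 28060 bp, and 99, 80, 56 and 93 at -5125 bp. A further site scored 100 in WT +Leu and 48 and 123 in GCN2 KO with and without leucine, and another scored 108 in GCN2 KO +Leu alone. WT -Leu was not the highest at 4 of these 5 sites, unlike at the assembled sites in all lists. Near-identical copies of a sequence can share reads, and the part of this in these scores was not tested.

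Genes were also read from 9 lists of known ATF4 programs and neighbouring functions, against the share of all 8863 genes near a peak that had an intergenic member (8.02%, 10.4%, 5.96% and 4.10% in the 4 lists). For amino acid transport, 5, 3, 0 and 0 of the 16 genes near any peak had a member. Slc7a1, which encodes the cationic amino acid transporter CAT1, had a site at -19365 bp with 57 in WT +Leu and 309 in WT -Leu. Slc38a2, which encodes the neutral amino acid transporter SNAT2, had one at -43682 bp in WT -Leu alone with a score of 57. Both of these sites held TGATGCAA. Slc38a2 also had a member in WT +Leu at another site, named after its values were seen. Slc36a4, a proton-coupled amino acid transporter gene, had a member with a score of 46 in WT +Leu alone.

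For amino acid and one-carbon synthesis 2, 1, 0 and 1 of 19 genes had a member. Ass1, of arginine synthesis, had a member with a score of 44 in WT -Leu and one of 30 at another site in GCN2 KO -Leu, and both sites lie inside Hmcn2 by RefSeq. For tRNA charging 0, 2, 1 and 0 of 23 genes did. The threonyl-tRNA synthetase gene Tars had a site at 28786 bp with TGATGCAA and a score of 64 in WT -Leu alone. Vars (22 in WT -Leu) and Aars2 (38 in GCN2 KO +Leu) had weaker ones without the element.

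For mTOR signaling 2, 2, 0 and 2 of 13 genes had a member. Ddit4, also known as REDD1, an inhibitor of mTORC1, had a site at -1107 bp that scored 320 in WT +Leu and 384 in WT -Leu, and neither GCN2 KO list held a peak at that site. In GCN2 KO -Leu Ddit4 had a member at another site, named after its value was seen, at -18146 bp with a score of 29. Tfeb, a regulator of lysosome genes, had a member with a score of 30 in GCN2 KO -Leu. Together with Sesn2, these were the genes of the list. For the control of the integrated stress response 0, 1, 1 and 2 of 18 genes had a member, all at 32 or less, with Trib1 (32) and Atf5 (30) in GCN2 KO -Leu and Cebpa (24) in GCN2 KO +Leu. Autophagy had 0, 1, 0 and 0 of 7 genes, with Atg5 at 23 in WT -Leu.

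For secreted stress and growth factors 3, 4, 1 and 1 of 13 genes had a member. Fgf21, a starvation-induced hormone, had a site at -1057 bp with TGATGCAA that scored 94 in WT +Leu and 233 in WT -Leu and lies 1059 bp from Fut1. Cxcl1, a neutrophil chemokine, had one at -6144 bp with TGATGAAA and 119 in WT -Leu alone, and Lif, a cytokine of the interleukin-6 family, one at 42001 bp with 73 in WT -Leu alone. Another Lif member of WT -Leu, named after its values were seen, scored 57 and held TGATGCAA. Vegfa and Gdf15, named after their values were seen, had members in WT +Leu alone, at 36, 31 and 19 for Vegfa and 25 for Gdf15.

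Among AP-1 and CREB family genes 3, 2, 0 and 1 of 18 had a member. The strongest, at Batf, scored 104 in WT -Leu at -42834 bp, held no TGATGNAA and lies 4008 bp from Jdp2. Batf also had a member in WT +Leu at another site, named after its values were seen. Bach1 (45 in WT -Leu) and Batf3 (30 in WT +Leu) had members weaker than the WT -Leu one at Batf. Genes of fibroblast matrix and identity had 1, 2, 0 and 0 of 10, with Col1a2 (37) and Thy1 (30) in WT -Leu and Cyr61 (17) in WT +Leu. No list was tested against the background, and the GCN2 KO counts are to be read beside its lower shares there.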

How the data were processed

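ATF4 ChIP-seq of 4 conditions was used as the authors' annotated peak lists. Per the study's methods and the submitters' processing notes, reads were trimmed with fastx, aligned to mm10 with BWA (0.7.12), called with MACS2 (2.1.0, --nomodel, false discovery rate of 0.05) for each library, and annotated with HOMER (4.7). The deposited score is the authors' peak caller's and is not normalised. For each window the authors deposited the distance to the nearest TSS and, as a fraction of its bases, the content of GC and of CpG, written here as percent.

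The members and gene lists were chosen with earlier results of these data known. A site was counted as shared when peak centres lay 300 bp or less apart. Shares carry 95% Wilson intervals, and ratios the interval derived from them. Because depth is unknown and PCR reads are not independent molecules, they cover counting error only. With 1 library per condition no test was made. Sequences came from RefSeq GRCm38.p6, with GC content compared with the lists within 0.0001. Named sites are the 5 highest-scoring members of each list, those in all 4 lists, the 3 highest of each gene list, the gene with most members, and the neighbours of the 50 kb limit. Any other is said to have been named after its values were seen, apart from flanking genes given for position. Scripts ran in Python 3.11.15 with pysam 0.24.0, pandas 2.3.3, numpy 2.4.6, matplotlib 3.10.9, scipy 1.17.1 and samtools 1.23.1, and overlaps and motif searches were first tested on simulated data. Alternatives were other score minimums, equal numbers of members, assembled chromosomes alone, other overlap and TSS distances, other motif windows and percentile ranks. The 2 input libraries were not used here, and 1 site that the rule for named sites selects is not reported here.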

Additional observations from a re-analysis of the deposited data

Results flagged for a closer look

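The number of intergenic members moved in opposite directions in the genotypes. The ratio of -Leu to +Leu was 1.34 in WT and 0.694 in GCN2 KO, beside 1.31 and 0.749 for all peaks. Among members with a score of 100 or more it was 12.7 in WT (9 and 114 members) and 0.75 in GCN2 KO (4 and 3 members). All peaks with such a score numbered 90 and 626 in WT and 32 and 13 in GCN2 KO, so the members moved in the same directions as all peaks. With 1 library per condition the difference between genotypes was not tested, and unequal read depth of the libraries and the conditions cannot be told apart.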

How the results depend on the processing

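Of 80 alternative values computed for 15 results, 65 stayed within the counting interval of the value given, 14 left it and 1 turned its direction. With a score of 30 or more the WT ratio was 1.54, TGATGCAA was in 7.12% of WT +Leu and 13.5% of WT -Leu members, and 12.7% of WT +Leu members had a WT -Leu peak. With the 387 strongest members of each list, TGATGCAA was in 7.09% of WT +Leu and 19.3% of WT -Leu members, 2.33% and 29.5% reached a score of 100, 12.9% of WT +Leu members had a WT -Leu peak and 2.84% of WT -Leu members a GCN2 KO -Leu peak. Both settings keep stronger peaks by construction. TGATGNAA was found in 5.60%, 13.1% and 3.14% of WT +Leu, WT -Leu and GCN2 KO -Leu members, and a motif window of 150 bp to either side gave 10.8% in WT -Leu. The median score ratio at shared WT sites, 2.31, became 0.9999 with percentile ranks, just under equality. No paired analysis was possible because each condition had 1 library. Leaving out a replicate was not possible for the same reason.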
